A study of Mus musculus with 7 samples.

Results

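Semaphorins, plexins and neuropilins, the genes of a guidance pathway made up of ligands, receptors and co-receptors, were compared between the blastema and the uninjured digit of C57Bl/6 mice. A blastema is the mass of cells that forms at an amputated digit tip and rebuilds it. The genes were chosen by symbol alone (class 3 to class 7 semaphorins, class A to D plexins, and both neuropilins), and 31 of the 22180 genes on the array qualified. They are 20 semaphorins, 9 plexins and 2 neuropilins. Total RNA came from 4 uninjured digits and from 3 blastemas taken 2 weeks after amputation, labelled as separate biological replicates. No transgene, mutation or agent is named for either group, and the labels leave age, sex, digit level and pooling unsaid. The series centres on Schwann cell precursors of nerves and the factors they secrete. Levels are log2 values from 1-colour arrays, so a difference of 1 is a 2-fold change.

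Semaphorins are secreted or membrane-bound ligands best known for steering growing axons. Plexins are their receptors, and they act inside the cell on small GTPases of the Ras and Rap families and on the actin cytoskeleton. Most secreted class 3 semaphorins bind a neuropilin, which passes the signal through a class A plexin, whereas Sema3e binds plexin D1 directly. In bone and skin the same genes are known for the guidance of vessels and nerves and for signalling between osteoclasts and osteoblasts.

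Plxnd1, Nrp2, Sema6d and Plxnc1 rose in the blastema, and no member of the family fell. The 4 genes that rose are 12.9% of the 31 members, against 9.64% of all genes changed in either direction and 4.98% of all genes higher, at an adjusted p under 0.05 in the limma fit. At the adjusted threshold 0 members were lower (4.66% of all genes were lower). At an unadjusted p under 0.05, 4 of the 31 were lower, namely Sema3e, Sema3f, Sema4c and Sema4g, against 2822 of all 22180 genes. At that unadjusted threshold 11 members differed, against 24.9% of all genes, and 7 of them were higher, against 2705 of all 22180 genes. The median log2 change of the 31 members was 0.07, and that of all genes was -0.0054. In 8 members the groups did not overlap (21.0% of all genes), 7 higher (10.4% of all genes) and 1 lower (10.6%). Of the 31 members 26 lay above a background proxy in at least 1 group, against 13377 of all 22180 genes (the proxy is described with Plxnc1). When those 13377 genes were tested alone, 1404 were higher and 1330 lower, and the same 4 members passed. The counts rest on few genes, and nothing particular to the family follows from them. Without both arrays numbered 1, which lay apart from the others on the axis of second largest variance, 4 members were higher and 0 lower. The higher count was 2 without uninjured array 2, blastema array 2 or blastema array 3, and 6 without blastema array 1. With the replicate number as a block, Sema6d (limma adjusted p = 0.0515), Plxnd1 (0.0558), Nrp2 (0.0864) and Plxnc1 (0.11) all missed the threshold.

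**Figure D1:**
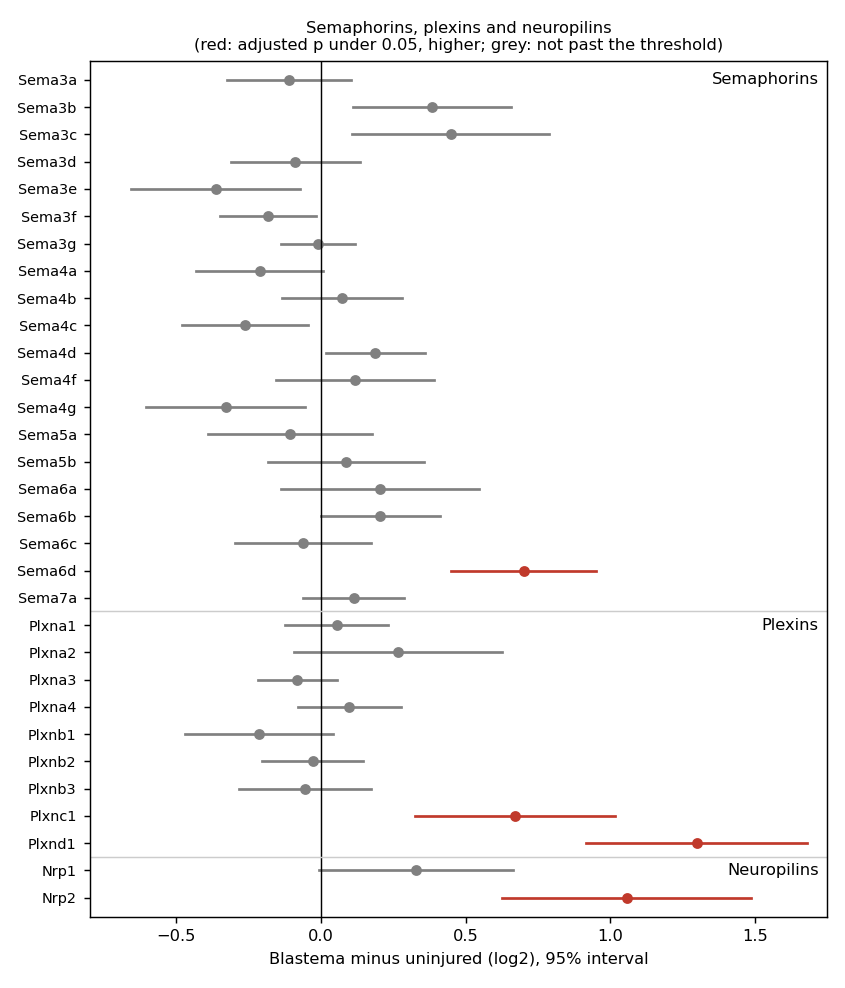
Log2 change (blastema minus uninjured, x axis) of the 31 genes, with points for the estimate and lines for its 95% interval from the limma fit over 4 uninjured and 3 blastema arrays. Plxnd1, Nrp2, Sema6d and Plxnc1 (red) lie at 1.30, 1.06, 0.70 and 0.67, and the other 27 genes between -0.36 and 0.45.

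The scale of the arrays bears on the direction of small changes. When each array was shifted to equal means of 8 reference genes, the median log2 change of all genes moved from -0.0054 to -0.40, and 3 members were higher (2.30% of all genes) and 14 lower (56.2% of all genes). Among those reference genes B2m (1.34), Gusb (0.89) and Gapdh (0.31, limma adjusted p = 0.0191) themselves rose. Of the 8, 7 had a higher mean in blastema and 1 a lower mean. Gapdh was kept in both scalings. With B2m and Gusb left out, a choice made after the values were seen, the median of all genes was -0.16, and 3 members were higher (2.76% of all genes) and 0 lower (7.61% of all genes). Plxnd1, Nrp2 and Sema6d were higher under both scalings, while Plxnc1 missed the threshold (limma adjusted p = 0.152 and 0.0742). Sema3e passed as lower under the scaling to 8 reference genes (-0.76, limma adjusted p = 0.00921) and not without B2m and Gusb (-0.52, 0.0983). The sign turned for 12 members under the first scaling and for 6 under the second, none of them a gene that had passed.

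Upstream sequences of the 4 genes that rose are shown because these are the members whose levels rose. Each is the 250 bases before a RefSeq start (GRCm38.p6), 5′ to 3′ on the strand of the gene, at chr6:115995006-115995255 (minus strand), chr1:62703067-62703316 (plus), chr10:94944846-94945095 (minus) and chr2:124089719-124089968 (plus). Capitals mark matches, on either strand, to the motifs searched.
Plxnd1: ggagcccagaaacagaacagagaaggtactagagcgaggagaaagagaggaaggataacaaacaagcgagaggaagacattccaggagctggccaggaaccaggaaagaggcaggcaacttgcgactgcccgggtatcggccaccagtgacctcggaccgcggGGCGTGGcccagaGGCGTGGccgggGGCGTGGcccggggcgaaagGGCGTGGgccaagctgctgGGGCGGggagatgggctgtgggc
Nrp2: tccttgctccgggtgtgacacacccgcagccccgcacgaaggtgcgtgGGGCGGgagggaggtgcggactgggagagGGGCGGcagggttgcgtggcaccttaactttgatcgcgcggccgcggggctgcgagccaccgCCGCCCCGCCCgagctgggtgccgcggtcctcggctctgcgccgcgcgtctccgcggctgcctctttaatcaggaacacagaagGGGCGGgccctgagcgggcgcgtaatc
Plxnc1: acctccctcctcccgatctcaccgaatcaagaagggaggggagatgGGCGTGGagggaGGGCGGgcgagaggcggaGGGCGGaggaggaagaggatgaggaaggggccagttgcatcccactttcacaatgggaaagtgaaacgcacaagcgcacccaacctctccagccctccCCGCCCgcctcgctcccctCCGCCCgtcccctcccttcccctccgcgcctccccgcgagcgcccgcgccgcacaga
Sema6d: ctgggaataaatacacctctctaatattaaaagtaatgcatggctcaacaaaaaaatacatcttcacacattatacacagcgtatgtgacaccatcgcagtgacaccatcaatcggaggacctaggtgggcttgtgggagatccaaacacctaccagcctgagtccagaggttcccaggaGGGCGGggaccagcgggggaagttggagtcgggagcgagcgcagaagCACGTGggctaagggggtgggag
The motifs were the GC box GGGCGG, the related GGCGTGG, the TATA box TATAAA, the E-box CACGTG, the RUNX core TGTGGT and the AP-1 site TGANTCA. They were chosen after the sequences had been seen, and neighbouring matches can overlap. The Plxnd1 window held 4 matches to GGCGTGG in its part nearest the start, and 0.0426% of the 32851 windows of this length in the table held at least 4. The GC box was matched 5 times in the Nrp2 window, 4 times in that of Plxnc1 and once each in those of Plxnd1 and Sema6d. At least 1 match was held by 32.7% of all windows and by 27 of the 37 windows of family members, called or not. No TATA box was matched in the windows of these genes, nor in any of the 37 member windows, and 12.4% of all windows held 1 or more. The Sema6d window held the E-box, as did 6.02% of all windows, and another Sema6d start in the table lacked it. CpG pairs numbered 16, 32, 22 and 9 in the windows of Plxnd1, Nrp2, Plxnc1 and Sema6d, against a median of 6.0 over all windows and 13.0 over the 37 windows of the 26 members that the table lists. A match is a run of letters and says nothing of binding.

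Among the receptors, Plxnd1 had the largest change of the family. Plexin D1 is the receptor of Sema3e and is known from endothelial cells. Its levels were 6.34, 6.62, 6.05 and 6.40 in uninjured digit and 7.37, 7.67 and 7.91 in blastema. Every blastema array lay above every uninjured array. The mean was 6.35 ± 0.23 (SD, n = 4) over the uninjured arrays against 7.65 ± 0.27 (SD, n = 3) in blastema, so Plxnd1 rose by a log2 change of 1.30 ± 0.16 (SE) or 2.46-fold (limma adjusted p = 0.00508). Plxnd1 passed the test in each of the 7 omissions of an array (limma adjusted p = 0.00693 to 0.0324). Its ligand gene Sema3e lay at 8.0, 7.51, 7.51 and 7.66 in uninjured digit and 7.28, 7.29 and 7.34 in blastema. The groups did not overlap, and uninjured array 1 was the highest. The difference in Sema3e was -0.36 (95% interval -0.65 to -0.07) and did not pass (limma adjusted p = 0.121).

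Nrp2 encodes neuropilin-2, a co-receptor for Sema3f, Sema3c and the lymphatic growth factor VEGF-C. It lay at 8.41, 7.86, 7.63 and 8.05 in uninjured digit and 8.92, 8.96 and 9.26 in blastema. All blastema arrays were higher than all uninjured arrays, with uninjured array 1 the nearest to them. The means were 7.99 ± 0.33 (SD, n = 4) and 9.04 ± 0.19 (SD, n = 3), a rise with a log2 change of 1.06 ± 0.18 (SE) or 2.08-fold (limma adjusted p = 0.0145). The call of Nrp2 was lost when uninjured array 2 (adjusted p = 0.052), blastema array 2 (0.0575) or blastema array 3 (0.0715) was omitted.

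Nrp1, the neuropilin that serves Sema3a and VEGF-A, lay at 7.37, 7.37, 7.05 and 7.30 in uninjured digit and 7.28, 7.78 and 7.75 in blastema. Blastema array 1 lay inside the range of the uninjured digits, and the other blastema arrays lay above it. The difference of 0.33 (95% interval -0.01 to 0.66) did not pass (limma adjusted p = 0.211), whereas without blastema array 1 it was 0.49 (adjusted p = 0.0412). The log2 value of Nrp2 minus that of Nrp1, whose size depends on the probes of each, was 0.71 ± 0.24 (SD, n = 4) over the uninjured arrays against 1.44 ± 0.24 (SD, n = 3) in blastema. It was 0.73 larger in blastema, with ranges of 0.49 to 1.04 and 1.17 to 1.64 that did not overlap. A two-sided exact permutation test over the 35 splits of the arrays gave p = 0.0571 (0.0857 adjusted over 3 such gene pairs, all chosen after the values were seen), where the smallest possible p was 0.0286. Among 7 other neuropilin ligands, of which Tgfb1 is described below, the differences went both ways. They were 0.56 for Vegfc (95% interval 0.23 to 0.90, limma adjusted p = 0.0527), 0.72 for Hgf (adjusted p = 0.0848) and 0.18 for Vegfa (adjusted p = 0.399). Vegfd differed by -0.39 (95% interval -0.75 to -0.03, adjusted p = 0.172), with groups that did not overlap. Pgf differed by -0.10 and Vegfb by 0.03.

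Plxnc1, the receptor of Sema7a, is known from leukocytes and melanocytes. Its levels were 5.11, 4.91, 5.16 and 4.81 in uninjured digit and 5.34, 5.83 and 5.84 in blastema. Blastema array 1 was the nearest to the uninjured arrays, and the groups did not overlap. The means were 5.0 ± 0.16 (SD, n = 4) and 5.67 ± 0.29 (SD, n = 3), a rise with a log2 change of 0.67 ± 0.15 (SE) or 1.59-fold (limma adjusted p = 0.0322). The uninjured mean lay below, and the blastema mean just above, a background proxy of 5.51. That value is the 95th percentile, over 1088 olfactory receptor genes, of each gene's mean. Plxnc1 was the least stable of the genes that rose. It kept its call when blastema array 1 was omitted (adjusted p = 0.0111) and lost it in the 6 other omissions, at adjusted p of 0.0555, 0.0921, 0.0617 and 0.0852 without uninjured array 1, 2, 3 and 4, and 0.121 and 0.128 without blastema array 2 and 3. Its ligand gene Sema7a lay at 6.32 to 6.5 in uninjured digit and 6.39 to 6.58 in blastema, ranges that overlap, with a difference of 0.11 (95% interval -0.06 to 0.29, limma adjusted p = 0.4).

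**Figure D2:**
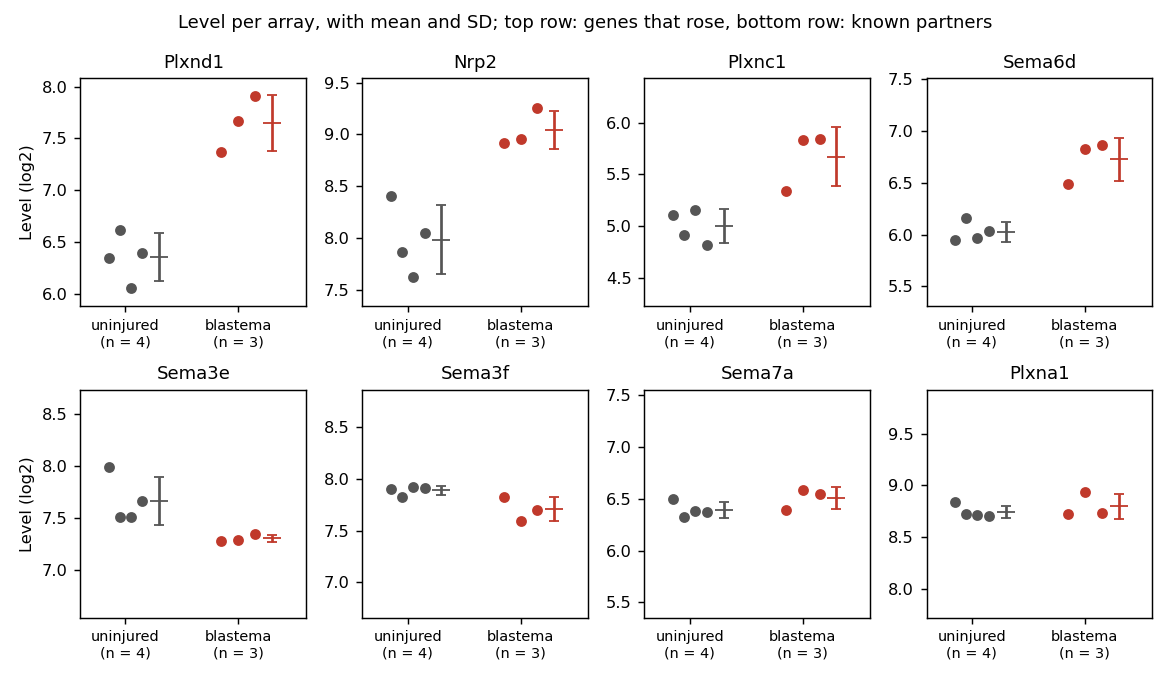
Level (log2, y axis) on each array for the 4 genes that rose (top row) and, below each, a gene known to pair with it, with points for arrays and bars for the mean and SD of 4 uninjured and 3 blastema arrays. Every panel spans the same height of the log2 scale, and the groups are apart in the top row, whereas Sema3f, Sema7a and Plxna1 overlap.

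None of the 7 other plexins passed the test. The class A plexins transmit class 3 and class 6 semaphorin signals, and their differences were 0.05 for Plxna1, 0.27 for Plxna2, -0.08 for Plxna3 and 0.10 for Plxna4. The class B plexins are receptors of class 4 semaphorins, and Plxnb1, Plxnb2 and Plxnb3 differed by -0.21, -0.03 and -0.06. Of these plexins, Plxna2 had the widest interval (-0.09 to 0.63), with levels of 7.05 to 7.52 in uninjured digit and 7.37, 7.49 and 7.89 in blastema. Plxnb1, the receptor through which osteoclast Sema4d acts on osteoblasts, lay at 7.73 to 7.90 in uninjured digit and 7.68, 7.73 and 7.32 in blastema, and blastema array 3 stood below the rest. Plxnb3 had means of 4.96 and 4.91, below the background proxy in both groups. The 2 probe sets of Plxna1 gave differences of 0.05 and 0.19, and those of Plxnb1 -0.21 and -0.15, the brighter of each pair being the one tested.

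Among the ligands Sema6d alone passed. It is a membrane-bound class 6 semaphorin known as a ligand of plexin A1 and plexin A4. Its levels were 5.95, 6.16, 5.97 and 6.03 in uninjured digit and 6.49, 6.83 and 6.86 in blastema. All uninjured digits lay below all blastemas. The means were 6.03 ± 0.09 (SD, n = 4) and 6.73 ± 0.21 (SD, n = 3), a rise with a log2 change of 0.70 ± 0.11 (SE) or 1.62-fold (limma adjusted p = 0.0091). Sema6d passed in each omission of an array (limma adjusted p = 0.00465 to 0.0485). Plxna1 lay at 8.71 to 8.84 in uninjured digit and 8.72 to 8.94 in blastema (limma adjusted p = 0.713). The related Sema6a, Sema6b and Sema6c differed by 0.20, 0.20 and -0.06, with overlapping groups, and Sema6b and Sema6c had means below the background proxy in both groups. The value of Sema6d minus that of Sema6a was 0.50 larger in blastema, with overlapping ranges (two-sided exact permutation p = 0.114, also 0.114 adjusted over the 3 pairs).

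Of the secreted class 3 semaphorins 0 of 7 passed. At an unadjusted p under 0.05, Sema3b and Sema3c were higher and Sema3e and Sema3f lower, although Sema3b stood at -0.0125 under the scaling to 8 reference genes. Sema3c, a ligand of both neuropilins, lay at 7.06, 7.28, 7.0 and 7.31 in uninjured digit and 7.32, 7.62 and 7.89 in blastema. Its groups did not overlap, but blastema array 1 lay just above the highest uninjured array. The difference of 0.45 ± 0.15 (SE, 95% interval 0.11 to 0.79) had a limma adjusted p of 0.107, and without blastema array 1 it was 0.59 (adjusted p = 0.0411). Under the scaling to 8 reference genes it was 0.0527 (adjusted p = 0.724), and without B2m and Gusb 0.29 (adjusted p = 0.225). Sema3b lay at 6.14, 6.14, 5.73 and 5.88 against 6.45, 6.29 and 6.33, a difference of 0.38 (95% interval 0.11 to 0.66, limma adjusted p = 0.0906). Sema3f, which signals through neuropilin-2, lay at 7.82 to 7.92 in uninjured digit and 7.82, 7.6 and 7.70 in blastema, a difference of -0.18 (limma adjusted p = 0.164).

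Sema3b and Sema3f lie near each other on chromosome 9, with 3 protein-coding genes between them in RefSeq. The log2 value of Sema3b minus that of Sema3f was -1.92 ± 0.24 (SD, n = 4) over the uninjured arrays against -1.35 ± 0.03 (SD, n = 3) in blastema. It was 0.57 larger in blastema, with no overlap of the groups (two-sided exact permutation p = 0.0286, the smallest these arrays can give, and 0.0857 adjusted over the 3 pairs). The pair was chosen after Sema3b had been seen to be higher and Sema3f lower, so this p lends no support of its own. On chromosome 5, Sema3d and Sema3a are adjacent protein-coding genes, Sema3e follows after 3 others and Sema3c after a further 15. Their log2 differences were -0.09, -0.11, -0.36 and 0.45 in that order, and none of these genes passed.

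Sema3a, known to hold back osteoclasts and support osteoblasts, differed by -0.11 (95% interval -0.33 to 0.10, limma adjusted p = 0.502). Its levels of 5.15 to 5.48 in uninjured digit and 5.10 to 5.25 in blastema were all below the background proxy, so low signal limits the comparison. Sema3d differed by -0.09 and Sema3g by -0.01.

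Class 4, class 5 and class 7 semaphorins had 0 of 9 members past the threshold. Sema4d, made by osteoclasts and immune cells, lay at 6.43 to 6.64 in uninjured digit and at 6.69, 6.77 and 6.65 in blastema. The groups did not overlap, though only narrowly, and the difference was 0.19 (95% interval 0.02 to 0.36, limma adjusted p = 0.166). Sema4g lay at 6.39 to 6.71 in uninjured digit and 6.39, 6.23 and 6.06 in blastema, a difference of -0.33 (adjusted p = 0.135). Sema4c lay at 6.74 to 6.99 against 6.46, 6.74 and 6.53, a difference of -0.26 (adjusted p = 0.134). In both Sema4c and Sema4g a blastema array reached the lowest uninjured array, so the groups overlapped. Sema4a (-0.21), Sema4b (0.07) and Sema4f (0.12) had overlapping groups, as had Sema5a (-0.11) and Sema5b (0.09).

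**Figure D3:**
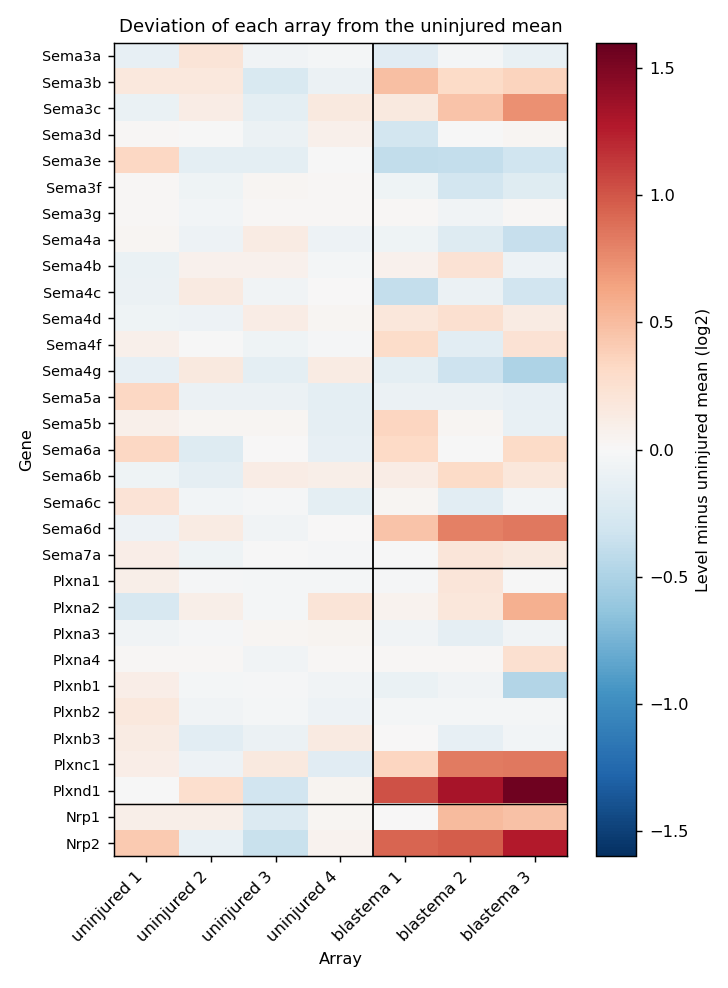
Level of each of the 31 genes (rows) on each of the 7 arrays (columns) minus the mean of the 4 uninjured arrays, in log2 units on the colour scale. The rows of Plxnd1, Nrp2, Plxnc1 and Sema6d are red on the 3 blastema arrays, palest on blastema array 1.

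Equal values on different arrays were common in the table. Of the 31 members 18 had at least 2 arrays at the same value to 6 decimals, as had 52.9% of all genes, and 0 of the 4 genes that rose were among them. Plxnb2 was at 9.21 on all 3 blastema arrays and on uninjured array 3, so its blastema SD of 0 understates the spread between samples.

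Genes that work with semaphorin receptors were described from 4 lists. Of 59 measured partner genes 53 lay above the background proxy in at least 1 group, against 13377 of all 22180 genes. When those 13377 genes were tested alone, 1404 were higher and 1330 lower. In the main fit 16 of the 59 partner genes rose and 2 fell, 30.5% against 9.64% of all genes, with a median log2 change of 0.16. The higher count was 10, 7 and 9 without uninjured array 2, 3 and 4, and 6 and 7 without blastema array 2 and 3, and the lower count was 0 in each of these omissions and 1 without uninjured array 1. Under the scaling to 8 reference genes 10 were higher and 20 lower, against 2.30% and 56.2% of all genes. Without B2m and Gusb among the reference genes 11 were higher and 5 lower, against 2.76% and 7.61% of all genes.

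Of 16 co-receptors and other membrane partners 5 rose and 2 fell, against 4.98% of all genes higher and 4.66% lower. Itgb1 and Itga1 encode the integrin chains that bind Sema7a. Itgb1 lay at 8.97, 9.10, 8.88 and 9.15 in uninjured digit and 9.71, 10.10 and 10.16 in blastema, and rose by 0.97 ± 0.13 (SE, limma adjusted p = 0.00562). Itga1 lay at 6.71, 6.88, 6.60 and 6.82 against 7.31, 7.81 and 7.88, and rose by 0.91 ± 0.15 (adjusted p = 0.0113). In both integrin genes all blastema arrays were higher than all uninjured arrays. Tyrobp, the adaptor that joins plexin A1 and Trem2 in the osteoclast response to Sema6d, lay at 6.12, 5.86, 5.97 and 5.80 against 6.5, 6.81 and 7.22. It rose by 0.91 ± 0.17 (adjusted p = 0.0182), and its partner Trem2 differed by 0.32 (adjusted p = 0.0623). The members that fell, named after their values were seen, were the adhesion gene Nrcam (-0.77, adjusted p = 0.0372) and the receptor gene Erbb2, a partner of class B plexins (-0.32, adjusted p = 0.0323). The call of Itga1 was lost when blastema array 2 (adjusted p = 0.0572) or 3 (0.0527) was omitted, and that of Tyrobp on omission of uninjured array 2 (0.0612), 3 (0.0566) or 4 (0.0575) or of blastema array 2 (0.0702). Nrcam kept its call in 0 of the 7 omissions (0.05 to 0.132), and Erbb2 kept it in 2, losing it on omission of uninjured array 2 (0.0821), 3 (0.0822) or 4 (0.0628) or of blastema array 2 (0.0953) or 3 (0.116). Of this list 2 were higher and 0 lower on omission of any of uninjured arrays 2, 3 and 4 or blastema array 3, 1 was higher and 0 lower on omission of blastema array 2, and 1 was lower on omission of either array numbered 1. Under the scaling to 8 reference genes 4 were higher and 6 lower, against 2.30% and 56.2% of all genes.

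Inside the cell, 8 of 29 effectors rose and 0 fell, against 4.98% of all genes higher and 4.66% lower. At an unadjusted p under 0.05, 5 effectors were lower, against 2822 of all 22180 genes. Dpysl2, which encodes the collapsin response mediator CRMP2, lay at 6.64, 7.22, 6.77 and 7.04 in uninjured digit and 7.62, 8.35 and 8.33 in blastema, a rise of 1.18 ± 0.22 (SE, limma adjusted p = 0.0173). Rras, a small GTPase that plexins switch off, lay at 8.98, 8.94, 8.73 and 8.46 against 9.45, 9.89 and 10.12, a rise of 1.04 ± 0.19 (adjusted p = 0.0154). Farp1, an exchange factor gene of the family that binds class A plexins, lay at 6.28, 6.42, 5.87 and 6.24 against 6.8, 7.08 and 7.43, a rise of 0.90 ± 0.18 (adjusted p = 0.0216). The groups were apart for each of these effectors, and blastema array 1 was the lowest of the blastemas each time. On omission of uninjured array 3, blastema array 2 and blastema array 3 in turn, the calls of Dpysl2 (adjusted p = 0.0589, 0.0758 and 0.0811), Rras (0.0543, 0.0704 and 0.0657) and Farp1 (0.0515, 0.0801 and 0.0759) were lost, that of Farp1 also on omission of uninjured array 4 (0.0606). The list had 2 higher genes on each of the first 3 omissions, 5 on that of uninjured array 2, 4 on that of uninjured array 4, and 3 higher and 11 lower under the scaling to 8 reference genes. Of all genes 2.30% were higher and 56.2% lower under that scaling.

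Other ligands of neuropilins numbered 7, and 1 rose and 0 fell, against 4.98% of all genes higher and 4.66% lower. Tgfb1, whose product neuropilins can bind, lay at 7.46, 7.0, 6.8 and 7.05 in uninjured digit and 8.33, 8.79 and 8.92 in blastema, a rise of 1.6 ± 0.19 (SE, limma adjusted p = 0.00422). Of 7 proteases that cut semaphorins 2 rose and 0 fell, against the same shares of all genes. Mmp14, a membrane metalloproteinase that can shed Sema4d, lay at 8.75, 8.67, 8.39 and 8.53 against 10.70, 11.08 and 11.17, a rise of 2.40 ± 0.14 or 5.28-fold (adjusted p = 0.00122). Pcsk5, a proprotein convertase of the furin family, lay at 5.86, 6.10, 6.12 and 6.35 against 6.79, 7.02 and 7.10, a rise of 0.86 ± 0.13 (adjusted p = 0.00825). Tgfb1, Mmp14 and Pcsk5 passed in all 7 omissions, whereas the neuropilin ligand list had 2 higher genes without uninjured array 1 and 3 without blastema array 1.

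**Figure D4:**
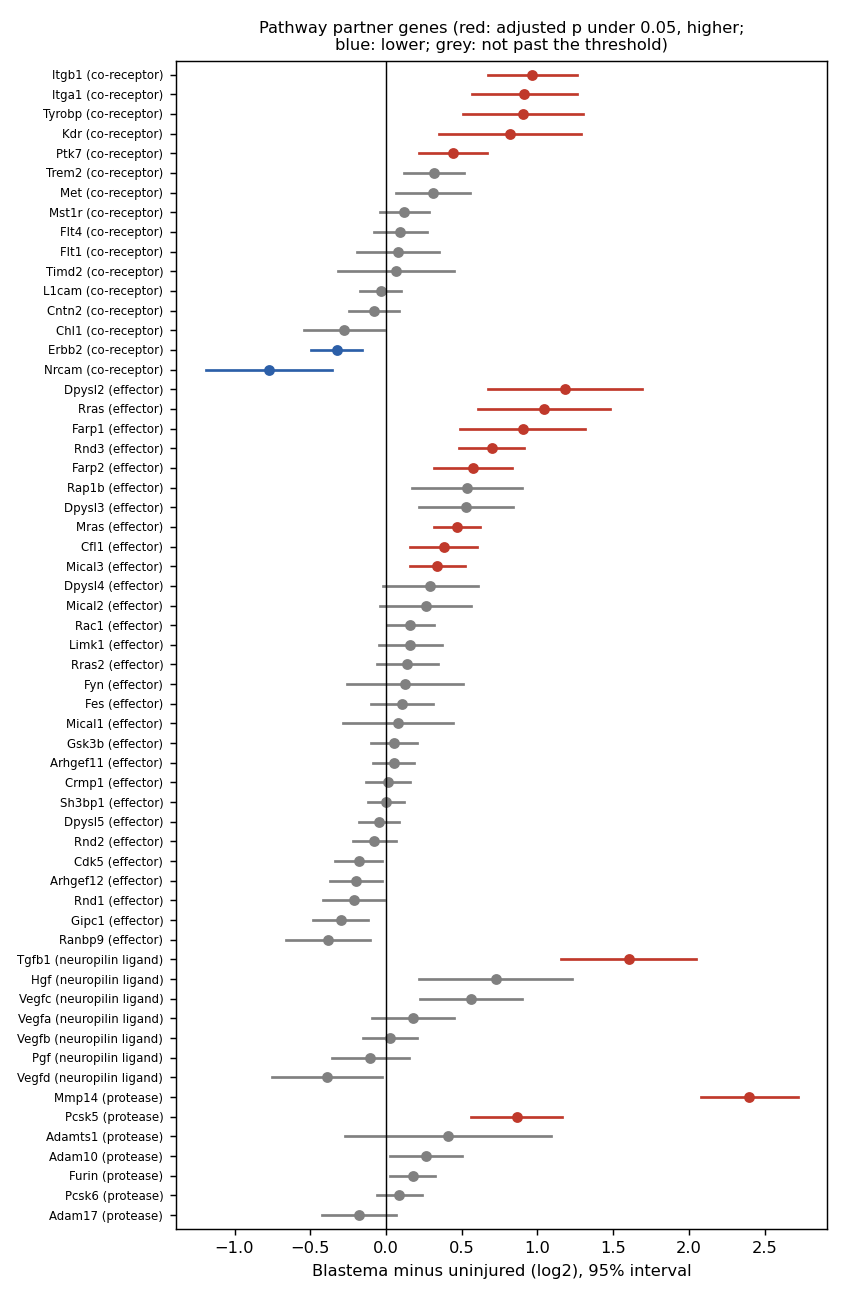
Log2 change (blastema minus uninjured, x axis) with its 95% interval from the limma fit for the 59 measured partner genes, grouped as co-receptors, effectors, neuropilin ligands and proteases. Of these, 16 are higher (red) and 2 lower (blue), and Mmp14 has the largest change, at 2.40.

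The arrays held RNA of whole tissue, in which fewer cells of a type and less RNA per cell cannot be told apart. Markers of several cell types that use this pathway differed between the groups. Over all genes 4.98% were higher and 4.66% lower at an adjusted p under 0.05, beside which the marker counts are to be read. Of 10 endothelial markers 2 rose and 0 fell, and their summed linear level ran from 723 to 993 in uninjured digit and from 1155 to 1772 in blastema. Of 8 osteoclast markers 7 rose, with sums of 488 to 555 against 2091 to 4709, and of 7 osteoblast markers 7 rose, with sums of 565 to 1197 against 10103 to 14550. Macrophage markers (4 of 8 rose) summed to 816 to 1022 against 1300 to 1742, fibroblast markers (4 of 7) to 2886 to 5644 against 7380 to 10980, and pericyte markers (3 of 7) to 1413 to 3109 against 2927 to 4816. The pericyte sums overlap and rest mostly on Rgs5 (0.73) and Acta2 (1.66), which did not pass (limma adjusted p = 0.238 and 0.0591). Myh11 differed the other way (-0.66, adjusted p = 0.269). Chondrocyte markers (3 of 5 rose) summed to 570 to 718 against 1386 to 1537. Epidermal markers (4 of 8 fell, 0 rose) summed to 26011 to 32976 against 21271 to 23290, and in Schwann cell markers 1 of 5 fell, Erbb3, with sums of 591 to 659 against 416 to 539. Erbb3 was the brightest of the 5 (means of 8.85 and 8.26) and weighs most in the Schwann cell sums. Sox10 (-0.05) and Foxd3 (0.0049) did not pass (limma adjusted p = 0.795 and 0.984). None of 5 lymphocyte and 5 skeletal muscle markers passed the limma test (1 and 0 at an unadjusted p under 0.05, against 24.9% of all genes). Of these, 1 lymphocyte and 2 skeletal muscle markers lay above the background proxy in at least 1 group, so low signal limits both lists. The endothelial marker Cldn5, the osteoclast marker Calcr, the macrophage marker Cd163 and the Schwann cell markers S100b and Cdh19 lay below the background proxy in both groups. The part of these cell types in the rises of Plxnd1, Nrp2, Plxnc1 and Sema6d was not tested.

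The marker counts varied with the array left out. Omission of uninjured array 3, blastema array 2 or blastema array 3 left 1 endothelial and 1 macrophage marker higher. Omission of uninjured array 1 left 1 endothelial marker, that of uninjured array 4 left 1 macrophage marker, and 3 and 4 endothelial markers were higher when blastema array 1 or both arrays numbered 1 were omitted. The pericyte count was 1 on omission of blastema array 2 or 3 and 2 on that of uninjured array 2 or 3. The chondrocyte count was 1 on omission of any of uninjured arrays 2, 3 and 4 or blastema array 3, and 2 on that of either of the other blastema arrays. Epidermal genes that fell numbered 2 on omission of any of uninjured arrays 2, 3 and 4 or blastema array 2, and Erbb3 kept its call when blastema array 1 or both arrays numbered 1 were omitted and lost it in the 6 other omissions of 1 array. Under the scaling to 8 reference genes, where 56.2% of all genes were lower, the lower markers numbered 7 in epidermis, 4 in Schwann cells, 3 in lymphocytes, 3 in skeletal muscle, 2 in endothelium and 1 each in macrophages, osteoclasts and pericytes. Under that scaling 6 osteoblast, 6 osteoclast, 4 fibroblast, 3 endothelial, 3 pericyte, 2 macrophage and 1 chondrocyte markers were higher. Of all genes 2.30% were higher.

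**Figure D5:**
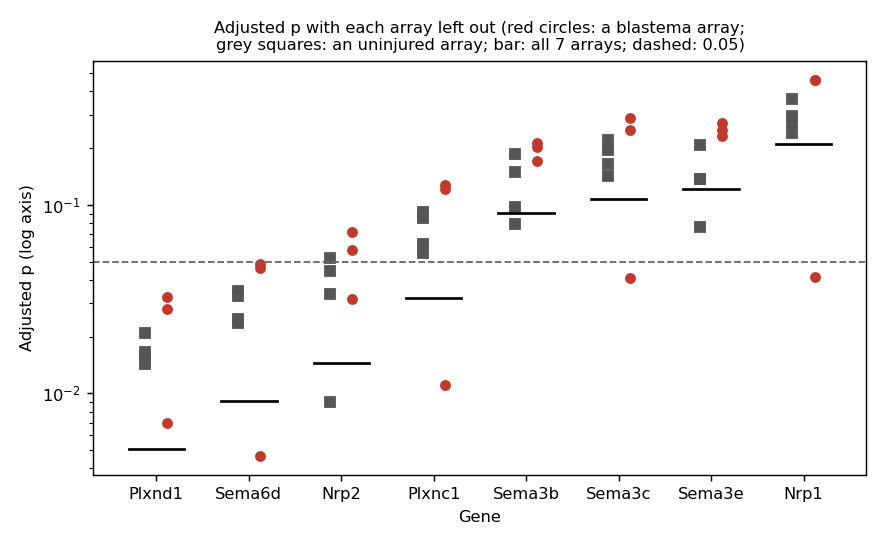
Adjusted p of the limma test (y axis, log scale) for 8 genes when each array was left out in turn, with bars for all 7 arrays and a dashed line at 0.05. Plxnd1 and Sema6d stay under the line in all 7 omissions, Nrp2 in 4 and Plxnc1 in 1, and Sema3c and Nrp1 fall under it without blastema array 1.

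Ephrins, Slits, netrins and their receptors, the other large families of guidance genes, had 4 higher and 2 lower genes of 39, or 15.4%, against 9.64% of all genes, with a median log2 change of 0.04. That share lay close to the 12.9% of the semaphorin pathway, and their difference was not tested. Of these 39 genes 31 lay above the background proxy in at least 1 group, against 13377 of all 22180 genes.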

How the data were processed

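RNA from 4 uninjured digits and 3 blastemas (400 ng each) was hybridised to 1-colour arrays, per the labels. The deposited log2 values were made by the authors with RMA in the R package oligo, per the submitters' processing notes, with versions and settings not given in the sources used here. RMA brings all arrays to one distribution, so a difference in total RNA content cannot be seen. There are 41345 probe sets, from 0.66 to 13.70, with array medians of 5.53 to 5.58 and no detection calls. Arrays have no read depth, and their number limits the precision.

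Genes were taken from the 23521 probe sets with exactly 1 symbol in the platform annotation (1814 list several, 16010 none), and the brightest over the 7 arrays was kept for each of 22180 genes. All 31 members matched RefSeq by Entrez identifier. The test was limma 3.58.1 (R 4.3.3), lmFit and eBayes, blastema against uninjured with no covariate, with two-sided p-values, Benjamini-Hochberg adjustment across the 22180 genes and a threshold of 0.05. The step was checked on simulated data. Members, lists and alternatives were chosen with earlier results of these data known. Values per array are given for members that passed or changed by at least 0.5, and other members named in that detail were chosen after their values were seen. Of each partner list the 3 called genes with the largest change are named. Of 63 partner genes 4 were not analysed here. Alternatives were a replicate block, 2 level filters, the mean of probe sets, all probe sets, a variance trend, array weights, scalings and omissions of arrays. Exact permutation tests used scipy 1.17.1. Figures were drawn with matplotlib 3.10.9.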

Additional observations from a re-analysis of the deposited data

Results flagged for a closer look

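Among the 4 uninjured arrays, a value stood apart from the rest in 4 of the 40 genes examined, by the ratio of its gap from the nearest array to the whole range (Dixon's test at 95%). Chance alone flags about 5% of groups. Plxna1 was at 8.84 on uninjured array 1 and 8.71 to 8.72 on the others (0.896), and Sema5a was at 8.83 on uninjured array 1 and 8.34 to 8.41 on the others (0.866). Plxna4 was at 5.53 on uninjured array 3 and 5.61 on the others (1.0), and Sema3g was at 5.78 on uninjured array 2 and 5.83 on the others (1.0). In Plxna4 and Sema3g the other 3 arrays held equal values, so a small gap fills the whole range. None of these 4 genes passed the test between the groups.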

How the results depend on the processing

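The 4 higher members were also called with genes under the 30th percentile in level removed, probe sets of a gene averaged, a variance trend with robust variances, array weights, array median scaling, genes above the background proxy, and without both arrays numbered 1. With all probe sets tested together 3 were called, without Plxnc1 (adjusted p = 0.05), and 0 partner genes were lower. With the replicate number as a block 0 members were higher (limma adjusted p = 0.0558 for Plxnd1, 0.0515 for Sema6d, 0.0864 for Nrp2 and 0.11 for Plxnc1). The block left 4 partner genes and 295 of all genes higher, and 0 partner genes and 304 of all genes lower. The shared numbers were not taken to pair the samples in the main fit. As deviations from their group means, same-numbered arrays correlated at -0.0651 to 0.2862 over 3 pairs. The correlation needed for pairing was put at 0.1, which the arrays numbered 1 and 2 reached and those numbered 3 did not. Blastema arrays 1 and 2 correlated best with the uninjured array of their own number (0.2862 and 0.1507), and blastema array 3 with uninjured array 4 (0.1401). Whether arrays of one number share a pairing or a batch was not tested beyond this. Omitting an array gave 2 to 6 higher members, 0 to 0 lower, 6 to 19 higher and 0 to 2 lower partner genes, and 457 to 1286 higher and 365 to 1009 lower genes in all. Scaling to 8 reference genes gave 14 lower members, 10 higher and 20 lower partner genes, and 511 higher and 12473 lower genes in all, and without B2m and Gusb 5 lower partner genes, 613 higher and 1687 lower in all. Both scalings shift every change downwards. Apart from that shift, the cause of these changes was not tested.

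Some members that had not passed turned sign. Under the scaling to 8 reference genes these were Nrp1 (-0.0676), Plxna1 (-0.34), Plxna2 (-0.13), Plxna4 (-0.30), Sema3b (-0.0125), Sema4b (-0.32), Sema4d (-0.21), Sema4f (-0.28), Sema5b (-0.31), Sema6a (-0.19), Sema6b (-0.19) and Sema7a (-0.28). With B2m and Gusb left out they were Plxna1 (-0.10), Plxna4 (-0.0568), Sema4b (-0.0814), Sema4f (-0.0377), Sema5b (-0.0687) and Sema7a (-0.042). Without both arrays numbered 1 they were Plxnb2 (0.0272), Sema3d (0.0201) and Sema5b (-0.0156). Omissions of 1 array took Plxna1 from -0.0166 to 0.092, Plxnb2 from -0.0555 to 0.0272, Sema3d from -0.15 to 0.0158, Sema3g from -0.0247 to 0.014, Sema4b from -0.0061 to 0.15, Sema5a from -0.16 to 0.0031, Sema5b from -0.0406 to 0.19 and Sema6c from -0.11 to 0.0116. Signal limits Plxnb3, Sema3a, Sema4f, Sema6b and Sema6c, which lay below the background proxy in both groups.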
